A study of Rattus norvegicus with 16 samples.

Results

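The stefins, cystatins and cysteine cathepsins examined here were 9 rat genes, the stefins Stfa2l2, Stfa2 and Cstb, the cystatin Cst3 and the cathepsins Ctsb, Ctsc, Ctsk, Ctsl and Ctss. They were chosen by name with the HDM against control signals of these same arrays known from earlier results, and each was read from the array probe whose RefSeq transcript accession maps to its symbol. A probe was found for 8 of the 9, out of 16678 symbols with such a probe on the array, and each of the 8 had 1 probe. Stfa2 had no matching probe and was not analysed here. RNA of lung and of adipose tissue was measured on 16 one-colour arrays from 8 male Brown Norway rats, 7 weeks old at the start. The 5 rats of the HDM group, a model of allergic asthma, had received subcutaneous injections of 45 µg house dust mite (HDM) with aluminium hydroxide as adjuvant, followed by repeated intranasal doses of 120 µg HDM. The 3 control rats had received saline with the same adjuvant and then intranasal saline, so both groups carried the adjuvant. Each rat gave 1 lung array and 1 adipose array, and the arrays of both tissues came from bulk tissue, not from sorted cells.

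Cysteine cathepsins are papain-like proteases of the lysosome and related vesicles. They break down proteins taken up by the cell, trim antigens and the invariant chain for MHC class II presentation, and can act outside the cell on matrix. Cystatins are their tight-binding inhibitors: stefins are the small members that stay in the cytosol, while cystatin C (Cst3) is secreted. In rodents the stefin A genes have multiplied into a cluster of close copies, several of which are known as transcripts of neutrophils and other myeloid cells.

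The Stfa2l2 probe is shown first because its gene carries the largest change among the 8 genes in both tissues. It is 60 bases long and, read in steps of 3 from its first base, holds 1 stop codon, the last 3 bases, which are in capitals.
Stfa2l2 probe: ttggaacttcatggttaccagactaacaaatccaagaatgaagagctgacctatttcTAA

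The study's supplementary lists name 2 more probes Stfa2l2, called the second and the third probe here, whose accessions are not among the RefSeq transcripts used here. These 2 probes are copies of each other at 58 of 60 bases and share no run longer than 5 bases with the first probe, so the first probe reads another stretch of sequence than the other two. Whether any of the 3 also binds transcripts of other stefin copies was not tested.

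In the RefSeq annotation of GRCr8, Stfa2l2 lies in a run of 16 annotated genes on chromosome 11 that begins with Stfa3, ends with Csta and also holds Csta3, Stfa2l1, Stfa2, Stfa2l3 and Stfa3l1. Start regions of some of these genes are shown because 2 genes of the run, Stfa2l2 and Csta, were higher in lung after HDM. Each line below gives 30 bases on the gene's own strand, with the TATA-like motif TTTAAA in capitals, and the first is from chr11:78003482-78003511 on the plus strand.
Stfa2l2: ggaggagtttacagatacaTTTAAAaccct
Stfa2l1: ggaggagtttacagatacaTTTAAAaccct
Stfa2l3: ggaggagtttacagatacaTTTAAAaccct
Stfa3: ggaggagtttacagataccTTTAAAaccct
Stfa2: ggaggagtttacagataccTTTAAAaccgt
Csta: ggaggagcttgtggataccTTTAAAatcct

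The Stfa2l1 (chr11:77950250-77950279, minus strand) and Stfa2l3 (chr11:78093736-78093765, plus strand) stretches were identical to that of Stfa2l2. The Stfa3 (chr11:77859007-77859036, plus strand), Stfa2 (chr11:78049738-78049767, plus strand) and Csta (chr11:78125752-78125781, plus strand) stretches shared 29, 28 and 24 of the 30 bases. Csta3 and Stfa3l1 are not shown. The Csta3 stretch found in the same way shared only 14 of the 30 bases, and the Stfa3l1 window held no TTTAAA. The first 18 bases of the Stfa2l2 stretch, GGAGGAGTTTACAGATAC, occurred on either strand in 5 of 33469 RefSeq promoter windows of 300 bases, 0.0149% of them, and all 5 belonged to stefins. TTTAAA alone was held by 13.6% of all windows. The motif begins 11 bases after the annotated start of Stfa2l2 but 29 bases before that of Stfa2, so the annotated starts of these copies are not placed alike.

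The 250 bases before the annotated start of Stfa2l2 (GRCr8, chr11:78003240-78003489, plus strand) are shown with the letters TTGCNNAA, a form of the C/EBP family motif, in capitals.
Stfa2l2 upstream: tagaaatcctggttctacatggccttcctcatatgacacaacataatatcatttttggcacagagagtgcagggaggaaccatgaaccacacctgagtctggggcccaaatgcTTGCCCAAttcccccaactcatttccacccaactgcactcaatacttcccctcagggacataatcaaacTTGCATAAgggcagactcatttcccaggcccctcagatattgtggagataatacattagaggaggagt
These letters, searched on both strands, occurred 2 times there, and neither overlaps TTTAAA. Of all windows, 10.6% held them at least once, as did those of Stfa2, Stfa2l3 and Stfa3, and that of Csta did not. These are matches of letters only.

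All signals below are log2 intensities minus the 75th percentile of the same array, so a value of 0 is the level of the 75th percentile probe, and differences are read within a probe only. A gene was called at an adjusted p below 0.05 over all 45598 probes and a change above 1.5-fold. Between 62.2% and 68.8% of probes stood well above background on the lung arrays, and between 51.0% and 60.3% on the adipose arrays. The tissues carried their own markers: the summed signal of the 8 lung epithelium markers was between 1650 and 1988 times the 75th percentile in lung and at most 2.42 in adipose tissue, and that of the 9 adipocyte markers was at least 1675 in adipose tissue and at most 40.7 in lung. The adipose arrays of HDM rat 1 and control rat 1 also carried genes of the epididymis, with a summed signal of its 9 markers of 4071 and 5104 against at most 28.9 on the other 6 adipose arrays. On each slide the upper row, row 1, held HDM rats 1 to 4, and row 2 held the remaining HDM rat with all controls. All arrays of a tissue shared 1 slide, so tissue and slide cannot be told apart.

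In lung, Stfa2l2, an intracellular inhibitor of papain-like proteases, was the only one of the 8 genes with a change above 1.5-fold. Its signal was 2.08, 1.95, 2.18, 2.15 and 1.71 in HDM rats 1 to 5, and -2.69, -2.23 and -2.28 in control rats 1 to 3. Every HDM rat lay far above every control, and the 5 HDM values spanned less than 1 log2 unit. The means were 2.02 ± 0.19 (SD, n = 5) and -2.40 ± 0.26 (SD, n = 3), a difference of 4.42 on the log2 scale or 21.4-fold. This change was known when the genes were chosen and is given as a description, with no test.

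**Figure D1:**
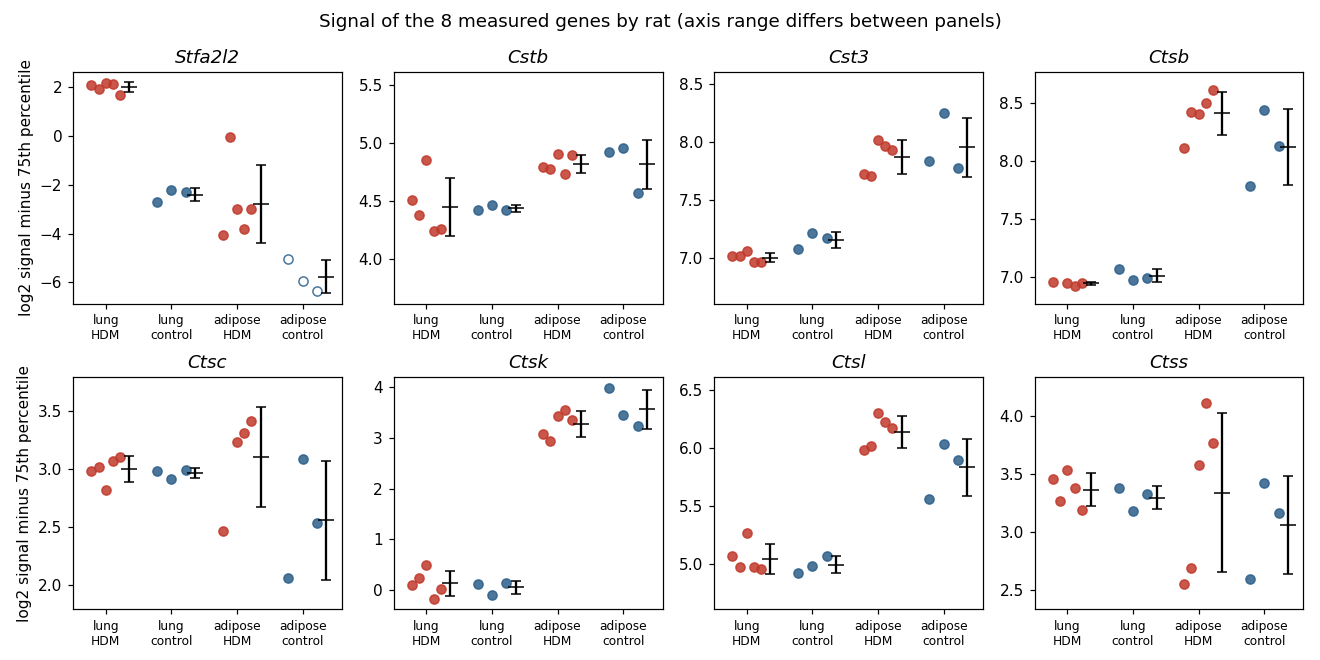
Signal of the 8 measured genes in each rat, as log2 intensity minus the 75th percentile of the array, with HDM rats in red and control rats in blue, open circles for signals not well above background, and mean ± SD as black bars. Stfa2l2 separates the groups in lung (1.71 or more against -2.23 or less), while the other 7 genes lie close together there, and Ctsk, Ctsb, Ctsl and Cst3 sit higher in adipose tissue than in lung.

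The second Stfa2l2 probe read 3.17, 3.00, 3.04, 3.07 and 2.93 in the lungs of HDM rats 1 to 5 and -0.34, -0.18 and -0.60 in the controls, a difference of 3.42. The third probe gave 3.02, 2.87, 2.89, 3.03 and 2.80 against -0.84, -0.69 and -0.75, a difference of 3.68. Within slide row 2, where HDM rat 5 can be set against the 3 controls, the difference of the first probe was 4.11.

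In adipose tissue Stfa2l2 was also higher in the HDM group, at a far lower level and with a wider spread. The first probe read -4.05, -0.02, -3.00, -3.79 and -3.00 in HDM rats 1 to 5 and -5.03, -5.95 and -6.33 in the controls. The groups did not overlap, and HDM rat 2 stood about 3 log2 units above the next HDM rat. The probe was well above background on all 5 HDM arrays and on none of the 3 control arrays, so only a bound can be given there. Control signals below the lowest one well above background on their array were raised to that level. The HDM mean was then at least 3.82-fold higher, or at least 2.37-fold without HDM rat 2. These bounds are of the means under this scaling and leave out the spread between rats. The measured difference was 3.00 ± 0.88 (SE) with an adjusted p of 0.372 in limma, which did not pass the test. Without HDM rat 2 the difference was 2.31 (adjusted p = 0.252). The adipose array of that rat held 1224 outlier spots against 355 to 444 on the other adipose arrays, the lowest share of probes well above background, 51.0%, and the highest 75th percentile signal, 240. Their part in its Stfa2l2 signal was not tested.

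The other 2 probes gave narrower groups in adipose tissue. The second probe read -2.29, -1.53, -2.32, -2.23 and -2.23 in HDM rats 1 to 5 and -4.88, -6.11 and -5.21 in the controls, and the third probe -2.63, -1.89, -2.16, -2.64 and -2.14 against -5.11, -4.98 and -6.66. HDM rat 2 was again the highest, but by less than 1 log2 unit. Both were well above background on 5 of 5 HDM arrays and 0 of 3 control arrays. Bounds of the same kind put the HDM mean at least 5.67-fold and at least 5.32-fold higher. Without HDM rat 2 they were at least 5.12-fold and at least 4.96-fold. The differences were 3.28 ± 0.32 and 3.29 ± 0.40 (SE), with adjusted p-values of 0.0853 and 0.168. No probe was called in adipose tissue, 0% of 45598 by limma and none by the methods' unpaired test, although 4515 had an unadjusted p below 0.05. Array weights gave 338 calls over all probes, quantile normalization 7, leaving out dim probes 5 and median scaling 3. None was among the 8 genes as read by their matched probes. Whether the other 2 Stfa2l2 probes were among these calls was not examined. The groups were free of overlap at 6.26% of all probes.

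**Figure D2:**
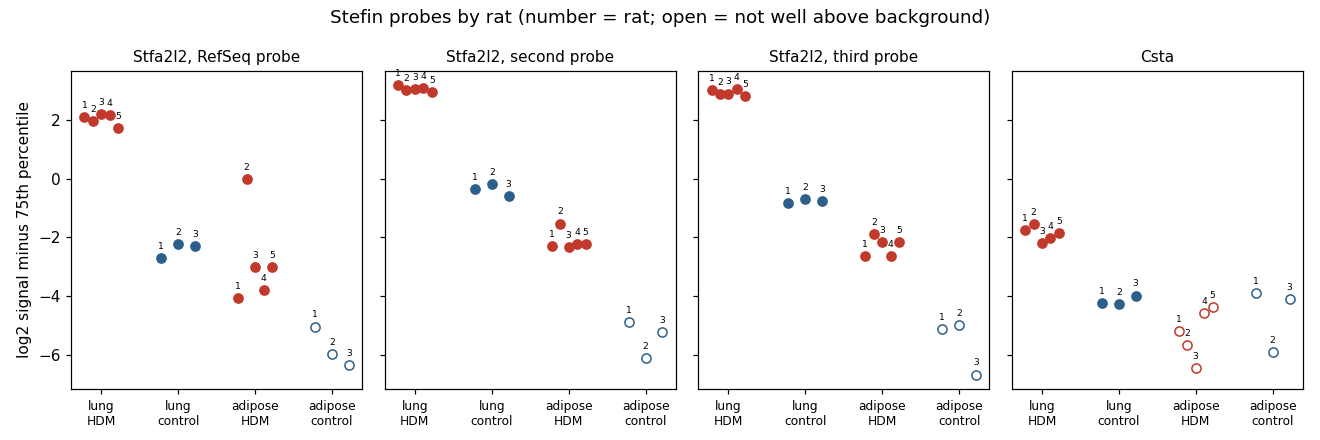
Signals of the 3 Stfa2l2 probes and of the Csta probe in each rat, as log2 intensity minus the 75th percentile of the array, numbered by rat, with open circles where the signal was not well above background. In adipose tissue HDM rat 2 is the highest HDM rat with each Stfa2l2 probe, about 3 log2 units above the next with the first and less than 1 with each of the others, and Csta is not above background on any adipose array.

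Among 16545 symbols measured on all 16 arrays, 5 had the profile most like that of Stfa2l2, by the root mean square difference of log2 signals centred within each tissue. The 5 were picked for this likeness, so where they separate the groups this follows from the choice, and their values are a description. They were S100a9 (0.82), Csf3r (0.92), Sele (0.95), LOC102550425 (1.15) and S100a8 (1.20). S100a8 and S100a9 are the subunits of calprotectin, which fills the cytosol of neutrophils, Csf3r is the receptor of the granulocyte growth factor G-CSF, and Sele is E-selectin, an adhesion molecule of activated endothelium. In lung S100a9 read 6.68, 6.30, 7.23, 6.35 and 6.21 in HDM rats 1 to 5 and 2.48, 2.58 and 2.33 in the controls. In adipose tissue it read 1.24, 1.61, 1.98, 0.84 and 0.74 against -2.13, -2.61 and -2.91. The HDM rats were the higher in both tissues. Csf3r read -4.22, -0.85, -3.91, -3.89 and -4.46 in the adipose tissue of HDM rats 1 to 5. LOC102550425 was well above background there in HDM rat 2 only, at -0.33, and its groups overlapped there. HDM rat 2 was therefore the highest adipose array for Stfa2l2, Csf3r, Sele and LOC102550425, but not for S100a8 and S100a9. Its summed lung epithelium signal, 2.42, was the highest among the adipose arrays, which were otherwise between 1.47 and 2.16, against 1743 in its own lung. By mean log2 signal of the same markers it was not the highest, at -3.97 against -3.72 in control rat 1 and -3.76 in HDM rat 1. Any part of lung RNA in its signals was not tested.

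**Figure D3:**
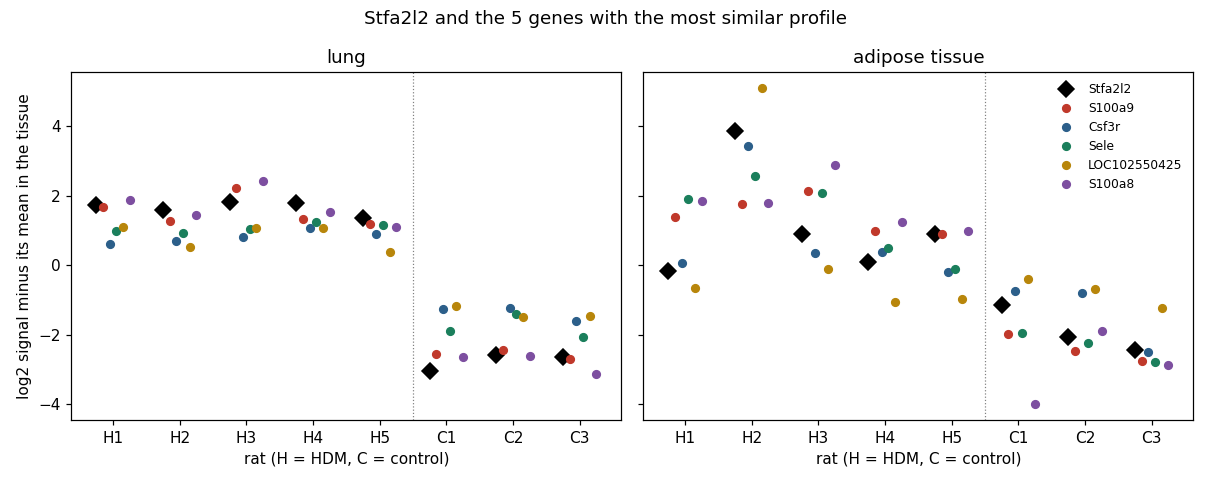
Log2 signal of Stfa2l2 (black diamonds) and of the 5 genes with the most similar profile in each rat, minus the gene's own mean in the tissue, for lung and adipose tissue. The 5 were chosen for their likeness to Stfa2l2, so it follows from the choice that all 6 separate HDM rats (H1 to H5) from controls (C1 to C3) in lung, and in adipose tissue Stfa2l2, Csf3r and LOC102550425 share a high value in H2.

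The neutrophil marker list moved with Stfa2l2 in lung. Of its 9 genes with a probe, 5 were called higher in HDM rats and none lower, against 0.855% of all probes called in either direction. S100a8 (4.46), S100a9 (4.09), Mmp8 (3.95) and Cxcr2 (2.46) were the furthest apart on the log2 scale. After background correction by normexp with quantile normalization their differences were 4.43, 4.07, 2.08 and 1.77. Fpr1, a receptor for formyl peptides, went the other way: it was free of overlap and lower in HDM rats by -0.66 (adjusted p = 0.0877) and was singled out after its values were seen. The list's median difference was 2.18 against 0.00 over all probes, and its summed signal was between 130.2 and 277 in HDM rats and between 15.7 and 16.5 in controls. No lung array had Ltf well above background, nor the granule proteases Elane and Ctsg. Mpo, Fpr2 and Cd177 had no matching probe. In adipose tissue none of the 9 was called, and 3 were free of overlap and higher (S100a8, S100a9 and Csf3r), against 6.26% of all probes. These 3 are among the 5 genes picked above for likeness to Stfa2l2. Csf3r was well above background there on 0 of 3 control arrays. The list's median difference in adipose tissue was 0.58 against -0.15 over all probes. The summed signal overlapped there. It was highest in control rat 1 (413) and HDM rat 1 (166.1), the arrays with epididymis genes. Control rat 3 (17.9) exceeded HDM rats 2 to 5, and control rat 2 was the lowest (4.19). The mean log2 signal of the list did not overlap, between -2.22 and -1.28 in HDM rats and between -2.99 and -2.31 in controls. What part neutrophil RNA had in the Stfa2l2 signal was not tested, and in bulk tissue fewer or more cells of a type cannot be told apart from less or more RNA per cell. Of the 6 eosinophil markers, none was called in lung, where Prg3 and Prg2 were free of overlap and higher in HDM rats by 2.73 and 1.75 (adjusted p = 0.0581 and 0.158). After background correction by normexp with quantile normalization these differences were 0.47 and 1.37.

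Of the 7 other stefins listed, 4 had a probe and 1 was called. Csta, or stefin A, another inhibitor kept inside the cell, read -1.75, -1.54, -2.19, -2.03 and -1.84 in the lungs of HDM rats 1 to 5 and -4.23, -4.28 and -3.97 in the controls. All 5 HDM rats lay above all controls, by a difference of 2.29 with an adjusted p of 0.00114 in limma. After background correction by normexp with quantile normalization the difference was smaller, 1.03 (adjusted p = 0.0015 in limma). Over all probes, 0.855% were called in lung and 9.66% were free of overlap. Csta was not well above background on any adipose array, and Stfa2l1, Stfa3 and Stfa3l1 were not on any array of either tissue, so no fold is given for them.

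Cstb, or stefin B, is the stefin found in most cell types. It read 4.51, 4.38, 4.86, 4.24 and 4.26 in the lungs of HDM rats 1 to 5 and 4.42, 4.47 and 4.42 in the controls, and HDM rat 3 was the highest. The groups overlapped, and the difference was 0.01 (95% confidence interval -0.35 to 0.37). In adipose tissue it was 0.00 (-0.35 to 0.36). The intervals of both tissues lie within a 1.5-fold change in either direction. Side by side, the lung differences of the stefins above background were 4.42 for Stfa2l2, 2.29 for Csta and 0.01 for Cstb, and differences between these genes were not tested.

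Cst3 encodes cystatin C, a secreted inhibitor made by most cells. It read 7.02, 7.02, 7.06, 6.96 and 6.96 in the lungs of HDM rats 1 to 5 and 7.08, 7.22 and 7.17 in the controls. Every HDM rat was below every control, by only -0.15 (-0.36 to 0.06, adjusted p = 0.697). In adipose tissue the groups overlapped, with a difference of -0.09 (-0.49 to 0.32).

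None of the 5 cathepsins was called in lung. Ctsb, which cleaves both within proteins and at their ends, read 6.96, 6.95, 6.92 and 6.95 in HDM rats 1, 3, 4 and 5 and 7.07, 6.97 and 6.99 in the controls. Its spot of HDM rat 2 was an outlier feature on the array and was left out. The groups were free of overlap, but the difference was -0.07 (-0.30 to 0.16). The others overlapped. Ctsc, which activates granule serine proteases, differed by 0.03 (-0.20 to 0.27). Ctsk, a collagen-degrading protease best known from osteoclasts, differed by 0.08 (-0.29 to 0.46). Ctsl, an endopeptidase of most lysosomes, differed by 0.05 (-0.20 to 0.31), and Ctss, which completes invariant chain processing in antigen-presenting cells, by 0.07 (-0.20 to 0.34). The 95% confidence interval of each of the 5 lies inside a 1.5-fold change, so larger changes lie outside these intervals for the cathepsins, Cstb and Cst3 in lung. Of the 8 genes, 3 were free of overlap in lung, against 9.66% of all probes. They were Stfa2l2 upward, whose change was known when the genes were chosen, and Cst3 and Ctsb downward, Ctsb on 4 HDM values. With outlier spots kept the difference was -0.04 for Cst3 and -0.19 for Ctsb. The lung epithelium markers had a median difference of -0.16, with none called and 3 of 8 free of overlap and lower, and a mean log2 signal between 7.21 and 7.36 in HDM rats and between 7.36 and 7.49 in controls. Their part in the Cst3 and Ctsb differences was not tested.

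**Figure D4:**
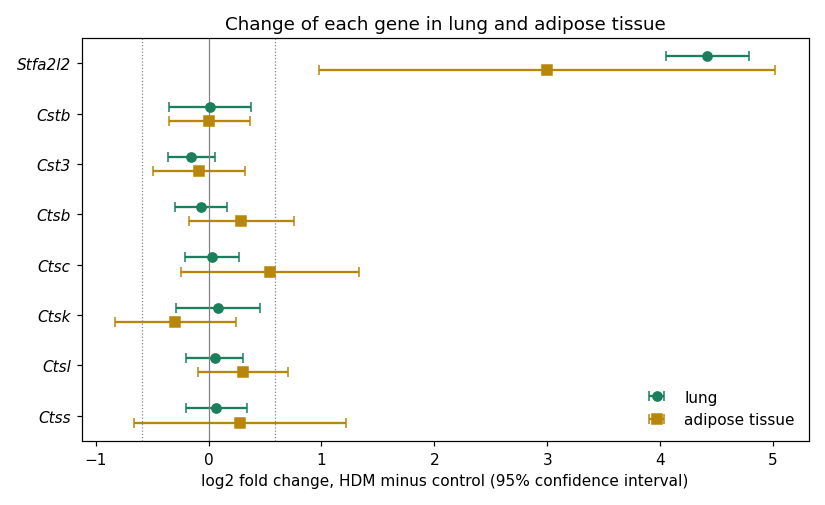
Log2 fold change of each gene, HDM minus control, with its 95% confidence interval from limma, in lung (green circles) and adipose tissue (ochre squares). Dotted lines mark a 1.5-fold change, which the lung intervals of all genes but Stfa2l2 stay within, while those of Ctsb, Ctsc, Ctsk, Ctsl and Ctss in adipose tissue cross it.

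In adipose tissue none of the 5 cathepsins was called either, and the intervals were wider. Ctsc read 2.46, 3.23, 3.31 and 3.41 in HDM rats 1, 3, 4 and 5 and 2.06, 3.08 and 2.54 in the controls, with the spot of HDM rat 2 left out as an outlier feature. Control rat 1 was the lowest and HDM rat 1 the next to lowest of these. The difference was 0.55 (-0.24 to 1.34, adjusted p = 0.66). Ctss read 2.55, 2.69, 3.57, 4.11 and 3.76 in HDM rats 1 to 5 and 2.60, 3.42 and 3.16 in the controls, so HDM rats 1 and 2 lay with control rat 1 at the low end. The difference was 0.28 (-0.66 to 1.22). Ctsb read 8.11, 8.42, 8.41, 8.50 and 8.61 against 7.79, 8.44 and 8.13, a difference of 0.29 (-0.17 to 0.75). Ctsl read 5.98, 6.01, 6.30, 6.22 and 6.17 against 5.56, 6.04 and 5.90, a difference of 0.30 (-0.09 to 0.70). Control rat 1 was the lowest array for both. Ctsk went the other way: it read 3.07, 2.93, 3.43, 3.55 and 3.36 in HDM rats and 3.99, 3.45 and 3.25 in the controls, and control rat 1 was the highest. The difference was -0.30 (-0.83 to 0.24).

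The median difference over all probes in adipose tissue was itself -0.15. Scaling to the array median in place of the 75th percentile moved that median to 0.14 and moved the differences of Ctsb, Ctsl and Ctsc to 0.59, 0.60 and 0.86 and that of Ctsk to 0.00, and gave 0.57 for Ctss, 0.30 for Cstb and 0.21 for Cst3, with no call. Without control rat 1 the differences were 0.13 for Ctsb, 0.17 for Ctsl, 0.30 for Ctsc, 0.05 for Ctss and -0.08 for Ctsk. Without HDM rat 1 as well, so with neither array that carried epididymis genes, they were 0.20, 0.21, 0.51, 0.24 and -0.03. Macrophages are rich in cathepsins B, C, L and S. The summed signal of the 13 macrophage markers with a probe was 86.8, 164.8, 233, 288 and 249 in the adipose tissue of HDM rats 1 to 5 and 65.2, 156.4 and 132.3 in the controls. Control rat 1 and HDM rat 1, the lowest for these markers, were also the lowest 2 of the 7 arrays with a Ctsc value, and control rat 1 was the lowest for Ctsb and Ctsl. No macrophage marker was called in adipose tissue, and the list's median difference was 0.59. What part macrophage RNA had in the cathepsin signals was not tested. In lung the same sum was between 43.1 and 45.3 in HDM rats and between 32.3 and 43.5 in controls, and Adgre1, a surface receptor of macrophages, was free of overlap and higher in HDM rats there by 0.64 (adjusted p = 0.23).

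The level of several genes differed between the 2 tissues of the same rat. These differences are described without a test, since tissue and slide cannot be told apart. They also depend on the scaling, as the 75th percentile signal was 376 to 488 in lung and 111 to 240 in adipose tissue. The control gene Hprt1 averaged 4.05 (HDM) and 4.09 (control) in lung against 4.78 and 4.73 in adipose tissue. Gapdh averaged 5.01 and 4.92 against 5.11 and 5.20. Ctsk was lower in lung than in adipose tissue in 8 of 8 rats, by -3.13 ± 0.40 (SD, n = 5) in the HDM group and -3.51 ± 0.39 (SD, n = 3) in the controls. Its neighbour on chromosome 2, Ctss, from which only 2 other annotated genes separate it, was higher in lung in 4 rats and lower in 4. Ctsb was lower in lung in 7 of 7 rats with both values, by -1.46 ± 0.23 (SD, n = 4) in HDM rats and -1.11 ± 0.38 in controls. Ctsl was lower in 8 of 8, by -1.09 ± 0.14 and -0.84 ± 0.21. Cst3 was lower in 8 of 8, by -0.87 ± 0.15 and -0.80 ± 0.21. Cstb was lower in 8 of 8 by the smaller amounts of -0.37 ± 0.22 and -0.38 ± 0.20. Ctsc was higher in lung in 3 rats and lower in 4. Stfa2l2 alone was higher in lung in all 8 rats, by 4.79 ± 1.67 in the HDM group and 3.37 ± 0.91 in the controls, the latter against adipose signals not well above background.

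The difference between the changes in the 2 tissues was tested on the lung minus adipose value of each rat, and none of the 8 genes passed. Over all probes 0.00219% did, 1 of 45598, although 3531 had an unadjusted p below 0.05. For Stfa2l2 the value was 1.42 with an adjusted p of 0.73, but it rests on adipose control signals that were not well above background and gives no size for the difference. For the cathepsins the values were -0.52 for Ctsc (-1.36 to 0.33), -0.36 for Ctsb (-0.98 to 0.27), 0.38 for Ctsk (-0.31 to 1.07), -0.25 for Ctsl (-0.70 to 0.19) and -0.21 for Ctss (-1.23 to 0.81). Cstb and Cst3 differed by 0.01 (-0.48 to 0.50) and -0.07 (-0.52 to 0.39). These intervals are wide enough that differences of more than 1.5-fold between the tissues lie within those of the 5 cathepsins.

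The other cystatins held no call. Cst7, or cystatin F, an inhibitor of cathepsin C in the vesicles of immune cells, was free of overlap and higher in the lungs of HDM rats, at -0.66, -0.89, -0.32, -1.03 and -0.84 in rats 1 to 5 against -1.24, -1.50 and -1.78. Its difference of 0.76 did not pass the test (adjusted p = 0.164). Of the 16 other cystatins with a probe, 8 did not stand well above background in any lung, among them Cst8, Cst11, Cst12 and Cst13. These 4 were singled out after their values were seen. Cstl1 was free of overlap in adipose tissue, lower in HDM rats, but was not well above background on any adipose array, so no fold is given for it. In adipose tissue Cst11, an epididymal cystatin, read 8.84 in HDM rat 1 and 8.98 in control rat 1, and -5.24 or less on the other 6 arrays. Cst8, a cystatin of the male reproductive tract, read 8.13 and 6.73 in the same 2 rats and -6.06 or less in the others. Cst12 read 6.73 and 6.40 there, and -1.38 in HDM rat 2. The high arrays were those with epididymis genes, 1 in each group. The lysosomal genes Cd63 and Npc2 read 8.12 and 7.62, and 6.80 and 6.30, on the same 2 arrays, against at most 5.33 and 3.33 on the others. Cst3 read 7.73 and 7.84 there, within the range of the remaining adipose arrays, 7.71 to 8.25.

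**Figure D5:**
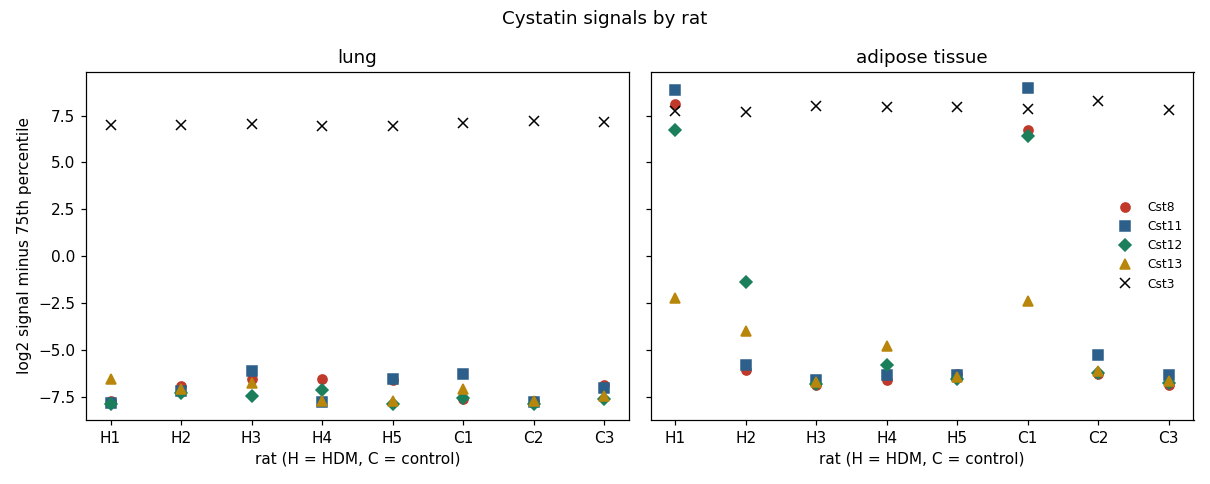
Signals of Cst3 and of the epididymal cystatins Cst8, Cst11, Cst12 and Cst13 in each rat, as log2 intensity minus the 75th percentile of the array, in lung and adipose tissue. In adipose tissue Cst8, Cst11 and Cst12 exceed 6 in HDM rat 1 (H1) and control rat 1 (C1) only, while Cst3 stays between 7.71 and 8.25.

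Among the 13 other papain-family genes with a probe, 1 was called in lung and none in adipose tissue. Tinagl1, a matrix protein related to cathepsin B that is not itself a protease, read 4.03, 4.05, 3.82, 4.07 and 3.95 in the lungs of HDM rats 1 to 5 and 4.71, 4.67 and 4.65 in the controls. It was lower in all 5, by -0.70 (adjusted p = 0.0259), but the call was lost on leaving out 6 of the 8 rats in turn, namely HDM rats 1, 2 and 5 and each control, and under median scaling (adjusted p = 0.0531). The proteases of this list above background on all lung arrays, Ctsf, Ctsh, Ctsw and Ctsz, differed by 0.05, -0.01, 0.01 and 0.21 in lung with no call. The list's median was 0.02 in lung and -0.22 in adipose tissue.

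The 26 other lysosomal proteases and lysosome genes were each well above background on at least 1 array of each tissue and held no call. In lung 3 were free of overlap and higher and 1 lower, against 9.66% of all probes, and in adipose tissue 0 were. The differences of the 26 ran from -0.34 to 0.37 in lung and from -0.30 to 0.45 in adipose tissue, so none reached 1.5-fold. Their medians were -0.03 and 0.17. The serine proteases that cathepsin C activates held no call among 11 with a probe, with medians of 0.24 in lung and -0.19 in adipose tissue. The granzymes Gzmb and Gzmk of cytotoxic lymphocytes were free of overlap and lower in the adipose tissue of HDM rats, by -1.37 and -0.77 (adjusted p = 0.353 and 0.301), and Gzmb was well above background there on 2 of 5 HDM arrays and 3 of 3 control arrays. The 11 genes of MHC class II presentation held no call in either tissue, with medians of 0.11 and 0.25. In lung 3 of the 11 were free of overlap and higher in HDM rats, against 9.66% of all probes. The list's mean log2 signal there was between 2.29 and 2.37 in HDM rats and between 2.11 and 2.24 in controls. In adipose tissue 1 of the 11 was free of overlap, against 6.26% of all probes. It was Ifi30, a lysosomal thiol reductase, higher in HDM rats by 0.65 (adjusted p = 0.382).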

How the data were processed

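RNA of lung and adipose tissue was labelled with Cy3 from 50 ng input and hybridised to one-colour arrays. Per the file headers, the authors read them with Feature Extraction 12.0.3.1, and the deposited intensity values are its processed, background-corrected signals. The authors also deposited a log2 table, in which 99.95% of lung and 99.8% of adipose cells lay within 0.1 of log2 intensity minus the 75th percentile of the array, centred per probe within the tissue. In it, 39 cells held text and were treated as missing.

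After removal of control and outlier spots, repeated spots of a probe were averaged as log2 values and each array's 75th percentile was subtracted. HDM and control were compared within each tissue by limma 3.58.1 (R 4.3.3) with Benjamini-Hochberg adjustment over 45598 probes. The tissue difference was tested on each rat's lung minus adipose value, paired by the rat named in the labels. Probes were named through RefSeq (GRCr8), which matched 21229 probes to 16678 symbols, and where a gene had several probes in a list the brightest in the tissue was used. Promoter windows are RefSeq's, and that of Ctsb was not used here. Probe sequences come from the study's supplementary lists. The script was tested on simulated data.

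The 9 genes, the 12 wider gene lists and the rules were chosen with earlier results of these data known. Named beside the 9 were the list genes with a call or no overlap and above 1.5-fold, at most 4 per list, and the 5 genes most like Stfa2l2. Replicates are separate rats. The small number of arrays limits the precision. Background correction by normexp used the median signal, since the files hold no mean signal. Alternatives tried were other scalings and filters, array weights, slide row, the methods' unpaired test and leaving out each rat.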

Additional observations from a re-analysis of the deposited data

Results flagged for a closer look

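Among the 8 genes in the HDM groups of both tissues, 16 groups in all, 1 value lay far from the others of its group, where chance gives about 1 in 20. It was Stfa2l2 in the adipose tissue of HDM rat 2, at -0.0245 against -3.00 for the next rat and -4.05 for the lowest, a gap of 0.739 of the group's range. HDM rat 2 was also the highest HDM rat with the other 2 Stfa2l2 probes, at -1.53 against at most -2.23 with the second and -1.89 against at most -2.14 with the third. Its array held 1224 outlier spots, against 355 to 444 on the other adipose arrays. The cause was not tested.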

How the results depend on the processing

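Of the 8 genes, 1 passed the threshold in lung under 21 of 23 alternatives. It was Stfa2l2, whose change was known when the genes were chosen, so this count is a description, beside 0.855% of all probes. There were 0 with the replicate block and 0 within slide row 2, where 1 HDM rat remains. Leaving out each rat gave 1 throughout. The Stfa2l2 difference in lung ranged from 3.42 to 4.50, and was 3.67 after normexp. In adipose tissue no alternative gave a member call. The other 2 Stfa2l2 probes were read there with the main scaling and fit only, with adjusted p of 0.0853 and 0.168 in limma. Whether they would be called under the other scalings, filters or array weights was not tested. For the tissue difference there was 0 under all 15 alternatives, including the fit with no replicate block. The Stfa2l2 difference in adipose tissue was 0.67 after normexp with quantile normalization, against 2.30 to 3.69 under the others, with adjusted p from 0.0681 to 0.975.

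Of the 135 wider list genes with a probe, 7 were called in lung, beside 0.855% of all probes. The count was between 6 and 8 on leaving out each rat, and 0 with the replicate block, which called no probe at all. That fit leaves few residual degrees of freedom, and same-numbered HDM and control rats are different animals: the correlation of their deviations from the group means was -0.06, -0.08 and 0.05 for numbers 1 to 3 in lung, and in adipose tissue 0.59, 0.14 and 0.10. In adipose tissue 0 were called, but 1, S100a9, was called with quantile normalization, median scaling or dim probes left out. The leave-one-out count there was 0. No reported call changed direction. For genes not called, a change of sign without a call was not counted as a reversal. Choosing the next brightest probe could not be run, since each gene had 1 matched probe. The exclusion of both arrays with epididymis genes, the other Stfa2l2 probes, the bound without HDM rat 2 and the fits of the tissue difference without a block or with the rat as a random block were added after seeing the data. Low signal over background limits what can be said of Stfa2l2 in adipose tissue, where the control arrays give a bound only.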
